A study of Mus musculus with 8 samples.

Results

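N6-methyladenosine (m6A) was examined here in 204 mouse zinc finger genes whose symbol is Zfp followed by digits alone, out of 8806 genes named in the m6A site lists of both control libraries of TBLC. The 204 genes were chosen by name and by having at least 1 called site in each of those 2 lists. Zfp42, a pluripotency marker, and Zfp36, which encodes an RNA-binding protein of another finger type, were set aside, as were 32 such names found in just 1 of the 2 control lists and 13 found in knockdown lists alone. The symbols of 200 of the 204 genes were found in the RefSeq gene table, all of them as protein-coding genes. GLORI, the assay used, chemically deaminates adenosine that carries no methyl group, which is then sequenced as G, while methylated adenosine stays A. The m6A level of a site is its A reads divided by its A and G reads. TBLC cultured in MYCP medium received siNC, a control siRNA, or siVirma, an siRNA against Virma, with 2 libraries each. EPSC, with 2 libraries of each guide pooled by the authors to 1 value per group, had the guide sgCtrl or sgGata6 of a dCas13b-FTO system that the series describes as a targeted m6A demethylation tool. The labels do not spell out TBLC or EPSC, give no age or strain, and do not say whether replicates were separate cultures, so that the p-values below cover the spread among these libraries alone, possibly a technical one. Positions refer to mm39. No annotation of that build was used, so the exon, intron or UTR of a site is not given.

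C2H2 zinc finger proteins form the largest family of DNA-binding factors in mammals. Each finger is a short fold that holds a zinc ion and reads a few bases of DNA, and many Zfp proteins carry long tandem rows of near-regular fingers encoded in a single exon. Many also carry a KRAB domain, which recruits Trim28 and, through it, Setdb1 and heterochromatin proteins to retroelements and imprinted regions in early embryonic cells. Others act at promoters, on RNA or in ubiquitin pathways. m6A is written by a complex around Mettl3 and Mettl14, in which Virma is a scaffold subunit.

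Virma itself had a deposited gene coverage of 40.3 and 38.2 after siNC and of 24.0 and 22.8 after siVirma, 0.544-fold relative to the median gene (log2 change -0.88, SE 0.06, limma adjusted p = 2.27e-05). The lists hold 66350 and 61957 sites in siNC and 41082 and 34739 in siVirma, with 2655963 to 4764955 A and G reads per library. They contain only called sites, with at least 15 reads, at least 5 A reads and a level of at least 0.1, so a site missing from a list may have a lower level or lower coverage. Of the cell type markers fixed as lists, 11 of 12 pluripotency genes and 11 of 14 genes of the 2-cell stage program were named in both siNC lists, as were 15 of 20 fibroblast (feeder), 8 of 11 primitive endoderm and 2 of 9 trophectoderm genes.

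The median m6A level was higher at sites of the Zfp genes than elsewhere, while the median number of sites per gene was the same. The 4 lists hold 2502 different sites in the 204 genes, and each gene's sites lie on a single strand. Of these, 1285 sites in 194 genes were called in both siNC libraries, and the other 10 genes shared no site between them. The number of shared sites per gene had a median of 3 in both, with a mean of 6.62 against 5.42. At least 5 sites were found in 84 genes (43.3%, against 40.5% of other genes), while 57 genes (29.4%, against 24.2%) had 1 site. The median siNC level was 0.492 (quartiles 0.289 and 0.776), against 0.406 at sites of other genes. Levels of at least 0.9 were found at 13.2% of the Zfp sites and 7.97% of other sites, and levels under 0.3 at 26.4% and 34.8%. Median read depth was lower in the Zfp genes, with 32.0 against 44.5 A and G reads per site. Related families had similar median levels, 0.538 in 31 Zbtb genes, 0.497 in 21 Zscan and Zkscan genes and 0.503 in 19 Zfp genes whose symbols end in letters. These shares describe site lists, were not tested, and their relation to read depth was not tested either.

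The 8 genes with the most shared sites were Zfp568 with 36, Zfp292 with 35, Zfp7, Zfp281, Zfp445 and Zfp646 with 28 each, Zfp638 with 27 and Zfp106 with 25. Zfp568 is a KRAB factor that represses a placental transcript of Igf2, and its sites lay on chromosome 7 between 29721803 and 29727485. Their siNC levels ran from 0.133 to 0.961 with a median of 0.249. Zfp292, a large zinc finger protein, had siNC levels from 0.113 to 0.972 with a median of 0.450, and its sites spanned 13007 nt of chromosome 4. Zfp281, a regulator of pluripotency genes, had a median of 0.506 and Zfp445, which protects imprinted regions together with Zfp57, 0.315. The medians of these 8 genes ran from 0.249 in Zfp568 to 0.549 in Zfp646, beside 0.492 over all Zfp sites.

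Fewer sites of the Zfp genes were called after the Virma siRNA. The number of called sites was 1861 and 1647 in siNC, against 1312 and 1064 in siVirma. The 2 groups did not overlap. The means were 1754 ± 151 and 1188 ± 175 (SD, n = 2 each), 32.3% fewer, with a two-sided exact permutation p = 0.333, the smallest that 2 against 2 libraries allow. Each gene had to be named in both siNC lists, and 13 Zfp names found in siVirma lists alone were left out. This rule favours the siNC counts, and its part in the difference was not tested. The 8806 genes used as background below met the same rule. As a share of all called sites the Zfp genes made up 2.80% and 2.66% in siNC and 3.19% and 3.06% in siVirma, so that this share was higher in both siVirma libraries (exact permutation p = 0.333). Considering each gene by itself, in 98 of 204 genes (48.0%) both siVirma libraries had fewer sites than either siNC library, against 64.3% of all 8806 genes, and in 6 genes (2.94%) both had more, against 1.37%. Zfp568 went from 43 and 39 sites to 23 and 20, and Zfp106, an RNA-binding protein needed in motor neurons, from 37 and 30 to 18 and 12. The groups did not overlap in either gene. Deposited coverage of Zfp106 was 93.8 and 90.9 in siNC, against 109 and 93.4 in siVirma. Zfp7 had 37 and 32 sites in siNC and 27 and 30 in siVirma, with coverage of 54.3, 50.5, 63.4 and 55.6 in the same order, so that its site numbers did not overlap either but lay closer together.

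Of the 1285 sites shared by the siNC libraries, 660 (51.4%) were called again in both siVirma libraries and 336 (26.1%) in neither. At sites of other genes these shares were 47.3% and 33.2%. In Zbtb genes, Zscan and Zkscan genes and Zfp genes with a letter 50.9%, 52.8% and 54.2% were called again in both. The shares in neither were 23.6%, 27.8% and 22.5% in the same order. Retention followed the starting level closely. In the Zfp genes 8.26% of sites with siNC levels of 0.1 to 0.3 were retained, 34.5% at 0.3 to 0.5, 73.1% at 0.5 to 0.7, 87.6% at 0.7 to 0.9 and 89.3% above that. All other sites, here including the related families and sites with no named gene, had 7.55%, 42.2%, 75.2%, 89.0% and 92.8% in the same bins. Unweighted, 47.0% of these other sites were retained. When the other sites were weighted to the mix of levels found in the Zfp genes, 54.1% of them were retained, and weighted to the mix of levels and read depth, 49.3%. The observed 51.4% lies between these values. In the opposite direction, 64 Zfp sites were called in both siVirma libraries and in neither siNC library. They made up 7.62% of the 840 Zfp sites in both siVirma lists. Among all 28098 sites in both siVirma lists the share was 5.93%. Those sites were not limited to genes named in both siNC lists, as the Zfp sites were, so these shares cannot be compared directly.

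**Figure D1:**
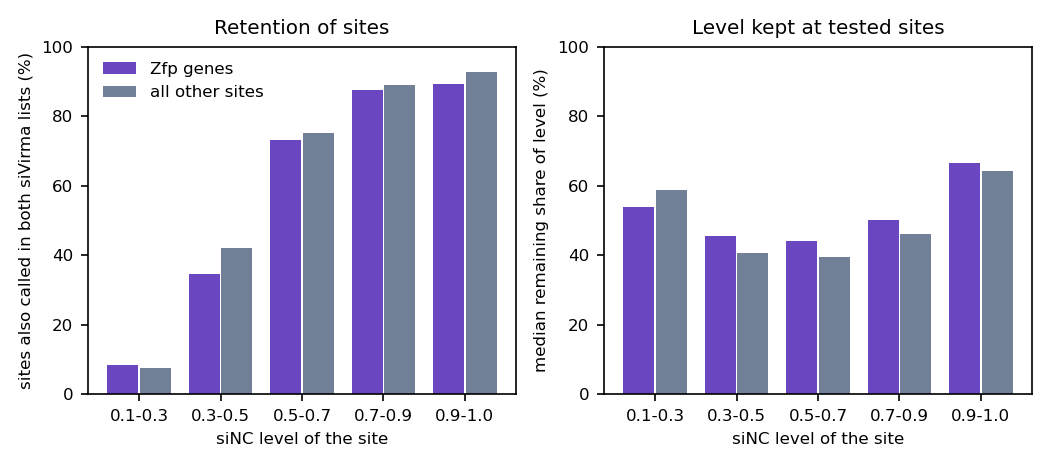
The left panel plots the percentage of sites called in both siNC lists that were called again in both siVirma lists, and the right panel the median percentage of the siNC level that remained at sites with at least 20 reads in each library, both by siNC level. Purple bars are Zfp genes and grey bars all other sites, and retention climbs from 8.26% to 89.3% in the Zfp genes.

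Sites in neither siVirma list were most frequent in Zfp568 (14 of 36), Zfp292 (12 of 35), Zfp106 (10 of 25) and Zfp229, Zfp740 and Zfp990 (7 each, of 21, 19 and 15). No site at all was called in either siVirma library for 13 genes (6.37%, against 11.7% of all 8806 genes). Of these, Zfp251 had 4 sites in each siNC library and Zfp997 had 2 in each. Zfp65 and Zfp81 had 2 and 1, as many in sum as 5 further genes, Zfp184, Zfp277, Zfp599, Zfp981 and Zfp994. The shared sites of Zfp251 had siNC levels of 0.631 and 0.967. Coverage of the 13 genes in siNC was 16.7 to 50.5, and the lists start at a coverage of 15, so a loss of sites and a loss of coverage cannot be told apart for these genes.

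The level of m6A fell in nearly all Zfp genes that could be tested. A and G reads were summed per gene over sites called in all 4 libraries with at least 20 reads in each, which left 119 of the 204 genes. Another 48 were named in all 4 lists but had no such site. By the quasi-likelihood test of edgeR, adjusted after Benjamini and Hochberg, 116 of 119 fell, against a background of 93.8% lower among 5642 genes, and 0 rose, against 0.177% (0 also at an unadjusted p under 0.05, and 0 by DESeq2 and by limma). The siVirma libraries lay below the siNC libraries in 118 of the 119 genes (99.2%, background 95.4%). The median share of the siNC level that remained was 52.7% (quartiles 44.7% and 59.8%), against 44.9% over all tested genes (quartiles 38.3% and 53.5%). The related families were as high, with 55.3% in 24 tested Zbtb genes. In 12 Zscan and Zkscan genes it was 53.7%, and in 10 Zfp genes with a letter 58.0%. Over sites with at least 50 reads in each library the medians were 49.2% in 45 Zfp genes and 41.8% in other genes.

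The difference in remaining share was seen again at single sites but not at every starting level. The median level of the 518 tested Zfp sites was 0.701 and 0.691 in siNC, against 0.321 and 0.323 in siVirma, and that of other sites 0.644 and 0.643 and then 0.262 and 0.265. Zfp sites thus stood above other sites by 0.0569 and 0.0478 in siNC and by 0.0588 and 0.0575 in siVirma, a change of 0.00582 in this gap (exact permutation p = 0.333). Without siNC replicate 2 or without either siVirma library the change in the gap turned negative, with values from -0.00952 to -0.00821. The median remaining share was 50.0% at Zfp sites and 45.1% at all sites, while the median change in level was -0.320 and -0.328. In Zbtb genes, Zscan and Zkscan genes and Zfp genes with a letter the remaining share per site was 52.4%, 49.1% and 53.8%. In the bins from 0.3 to 0.9 of siNC level the remaining share was 44.2% to 50.3% in the Zfp genes and 39.5% to 46% at other sites. Above 0.9 it was 66.6% and 64.4%, and below 0.3 it was 53.9% and 58.8%. At sites with at least 50 reads in every library it was 44.9% against 40.0% for levels of 0.1 to 0.5, 46.5% against 40.8% for 0.5 to 0.9, and 62.8% against 64.2% above. The requirement that a site be called in all 4 lists favours sites that kept a level of at least 0.1 and at least 5 A reads. It does so most where the starting level or the read depth was low. Read depth was lower at Zfp sites, and its part in the remaining share was not tested.

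By site, 487 of 518 fell (edgeR adjusted p, background 91.6%) and 0 rose (background 0.147%, and 0 at an unadjusted p under 0.05). Of the 31 others, 2 had a higher mean level in siVirma, named here after their values were seen. A site of Zfp207, a kinetochore factor, had levels of 0.306 and 0.312 in siNC and 0.292 and 0.400 in siVirma, with 24 to 36 reads (adjusted p = 0.629). A site of Zfp532 had 1.0 and 0.913 and then 0.950 and 0.967, with 23 to 40 reads (adjusted p = 0.958). Both groups overlapped at these sites.

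Among the 58 Zfp genes with at least 100 reads in every library, the lowest remaining shares were found in Zfp384 (38.7%), Zfp706 (39.8%), Zfp622 (40.7%), Zfp652 (40.9%), Zfp369 (41.0%), Zfp64 (41.4%), Zfp740 (41.6%) and Zfp598 (43.3%). Zfp598 encodes a ubiquitin ligase that senses collided ribosomes, and Zfp622 a factor of large ribosomal subunit maturation. The level of Zfp598 over 5 sites was 0.695 and 0.674 in siNC, against 0.303 and 0.289 in siVirma, with no overlap (log2 change in odds -2.37, SE 0.12, adjusted p = 8.10e-23). Zfp64 had levels of 0.758 and 0.759 in siNC and 0.316 and 0.312 in siVirma over 9 sites, all of which were called in all 4 libraries. Zfp384, a nuclear matrix transcription factor, had 0.426 and 0.424 and then 0.159 and 0.170 over 6 sites. Neither gene's groups overlapped. Zfp706, a small zinc finger protein of embryonic stem cells, was measured at a single site, with 0.590 and 0.552 in siNC and 0.251 and 0.203 in siVirma.

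Among the same 58 genes, the highest remaining shares were found in Zfp639 (70.2%), Zfp260 (66.7%), Zfp263 (65.6%), Zfp41 (62.4%), Zfp146 (61.9%), Zfp229 (61.4%), Zfp62 (61.1%) and Zfp646 (60.7%). Zfp639 had levels of 0.798 and 0.755 in siNC and 0.572 and 0.519 in siVirma over 5 sites, again with no overlap (log2 change in odds -1.54, SE 0.23, adjusted p = 3.37e-08). Zfp260 went from 0.671 and 0.655 to 0.430 and 0.453 over 5 sites, yet 6 of its 14 shared sites were in neither siVirma list. A high remaining share thus describes its retained sites alone. Zfp646 kept 20 of 28 sites, with levels of 0.697 and 0.709 in siNC and 0.422 and 0.432 in siVirma over 15 sites. Zfp146, whose protein consists of little besides fingers, kept 12 of 18 sites and went from 0.715 and 0.665 to 0.450 and 0.404.

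**Figure D2:**
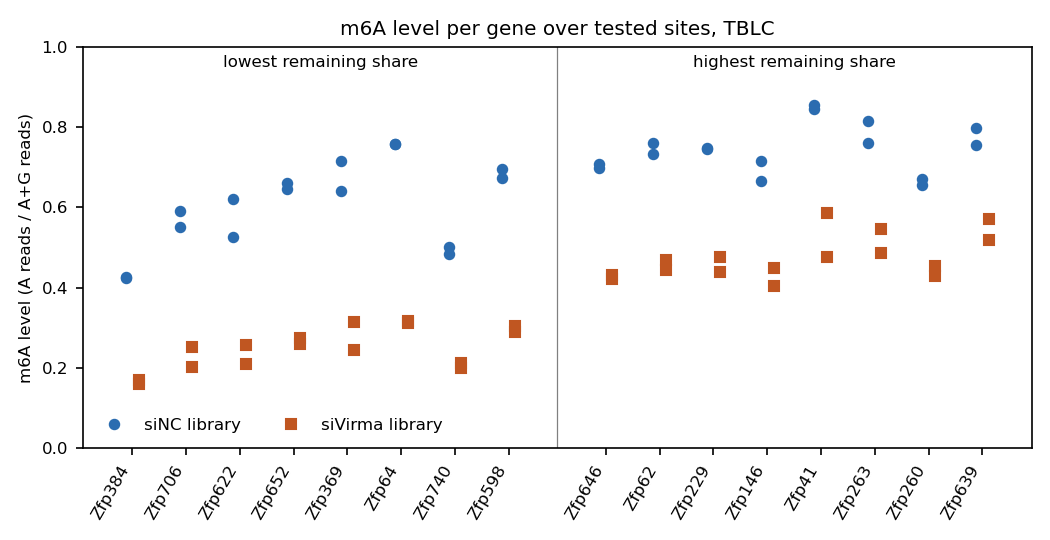
The vertical axis is the m6A level of a gene over its tested sites and each point is 1 TBLC library, blue circles siNC and orange squares siVirma. The 8 genes on the left kept 38.7% to 43.3% of their level and the 8 on the right 60.7% to 70.2%, and in all 16 both siVirma points lie below both siNC points.

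The 3 tested genes that did not pass the threshold were each measured at a single site. Zfp938 had levels of 0.190 and 0.195 in siNC and 0.156 and 0.190 in siVirma, with an edgeR adjusted p = 0.791. Zfp982 had 0.167 and 0.143 and then 0.128 and 0.114 (adjusted p = 0.513), and Zfp954 0.243 and 0.364 and then 0.180 and 0.132 (adjusted p = 0.0661). The first had overlapping groups and the other 2 did not, with 22 to 50 reads behind each value. A tested site had to keep at least 5 A reads and a level of at least 0.1 in every list. These genes would therefore have left the test had their levels fallen much further. Zfp954 passed the threshold when sites with fewer reads were added, with limma on logit levels, and without siNC replicate 1 or siVirma replicate 1.

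Single sites with at least 50 reads in each library changed in mean level by between -0.558 and -0.0847. The largest fall was at chr12:84390090 in Zfp410, known as an activator of Chd4, with 0.847 and 0.804 in siNC and 0.246 and 0.288 in siVirma (edgeR adjusted p = 1.55e-11). At chr2:168768799 in Zfp64 the level was 0.890 and 0.859 and then 0.341 and 0.296. A further site of Zfp64 at chr2:168767816 fell by 0.507 and a site of Zfp292 at chr4:34803312 by 0.545. All 4 sites had siNC means above 0.8 and no overlap between groups. Because a tested site kept a level of at least 0.1 in every list, a low starting level limits how far it could fall. The smallest changes included a high and a low starting level within Zfp281. At chr1:136554083 its level was 0.941 and 0.968 in siNC, against 0.833 and 0.890 in siVirma (adjusted p = 0.00262), a fall whose call was lost without siVirma replicate 1. At chr1:136554057, in the same cluster of sites, it was 0.240 and 0.167 and then 0.113 and 0.114 (adjusted p = 0.0354), and this call was lost without siNC replicate 1 or either siVirma library. A site of Zfp451, a SUMO ligase gene, at chr1:33815955 had 0.247 and 0.262 and then 0.162 and 0.157 (adjusted p = 0.0422), a call lost without any 1 of the 4 libraries. A site of Zfp106 at chr2:120364694 had 0.151 and 0.271 and then 0.128 and 0.125 and did not pass (adjusted p = 0.0696), except without siNC replicate 1.

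KRAB factors of imprinting and retroelement silencing were followed as a list of 8, of which 6 were among the 204 genes and 4 could be tested. All 4 fell (background 93.8% of all tested genes), with remaining shares of 49.7% to 56.1%. Zfp57, which binds methylated imprinted regions, was the most deeply read, with coverage of 404 and 388 in siNC and 434 and 368 in siVirma. Its level over 10 sites was 0.667 and 0.653 in siNC, against 0.371 and 0.370 in siVirma, which is 56.1% of the siNC level (log2 change in odds -1.73, SE 0.05, edgeR adjusted p = 6.99e-33). These 10 sites lay between chr17:37320408 and chr17:37321409, and each of them fell, but not to the same share. At position 37320976 the levels were 0.293 and 0.298 in siNC and 0.116 and 0.119 in siVirma, with 39.7% remaining. At position 37321409 they were 0.955 and 0.953 and then 0.795 and 0.784, with 82.7% remaining. Replicates at these 2 positions lay far closer together than the groups did. Zfp809, which silences proviruses of murine leukemia virus type in embryonic cells, kept 11 of its 13 shared sites and went from 0.712 and 0.755 to 0.433 and 0.358. Zfp568 went from 0.557 and 0.532 to 0.290 and 0.285 and Zfp445 from 0.477 and 0.461 to 0.215 and 0.251.

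Genes of pluripotency and chromatin made up a list of 21, with 19 among the Zfp genes and 17 tested. All 17 fell (background 93.8%), and the median remaining share was 46.9% (34.9% to 59.3%). Zfp296, expressed in pluripotent cells, went from 0.742 and 0.776 to 0.360 and 0.351, and Zfp217, a gene amplified in cancers whose product has been linked to m6A writing, from 0.728 and 0.722 to 0.332 and 0.339. Zfp281 kept more, with 0.683 and 0.664 in siNC and 0.379 and 0.399 after knockdown. Genes acting on RNA, translation or ubiquitin made up a list of 11, with 10 among the Zfp genes. All 7 that were tested fell (background 93.8%), with a median of 45.4% remaining (40.7% to 49.4%). Zfp638, which takes part in silencing of unintegrated retroviral DNA, went from 0.558 and 0.536 to 0.303 and 0.237. Zfp352, a gene of the 2-cell stage, had 1, 2, 1 and 0 called sites in the 4 libraries and was not tested. The medians of these lists stand beside 52.7% for all tested Zfp genes and 44.9% for all genes.

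Corepressor partners of KRAB factors, which are not Zfp genes, were taken as a list of 29. All 19 that were tested fell (background 93.8%), with a median of 44.5% remaining. Setdb1, the histone methyltransferase brought in by Trim28, went from 0.721 and 0.733 to 0.331 and 0.349, and Tasor, of the HUSH silencing complex, from 0.629 and 0.619 to 0.334 and 0.324.

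Most Zfp genes had no coverage call between the groups. The lists give a coverage value per gene, which was centred on the median gene of each library before testing. In siVirma 15 of 167 Zfp genes were lower by limma adjusted p, against a background of 9.65% of 6787 genes, and 8 were higher, against 13.3%. The median log2 change of the Zfp genes was -0.05. Their median coverage was 25.9 and 25.4 in siNC, against 28.5 and 26.1 in siVirma, and that of other genes 39.9, 38.3, 47.4 and 40.7. These calls depended on the centring. With a single shift removed between the groups in place of the centring per library, 1 gene was lower and 0 were higher (0.840% and 2.00% of all genes). Without centring 1 was lower and 5 were higher (0.442% and 9.46%). Leaving out 1 library leaves a single library in its group. The numbers of lower and of higher genes were both smaller without siVirma replicate 1, siNC replicate 1 or siNC replicate 2. Without siVirma replicate 2 they stayed nearer to the main numbers. In these bulk libraries, fewer cells of a type and less RNA per cell cannot be told apart. Of 12 fibroblast (feeder) markers with coverage in every library, 11 were higher in siVirma and 0 lower, with summed coverage of 449 and 423 in siNC and 768 and 633 in siVirma, and their part in the coverage of Zfp genes was not tested.

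Zfp971 had the largest fall, with coverage of 34.9 and 31.4 in siNC and 25.0 and 19.1 in siVirma, 0.602-fold after centring (log2 change -0.73, SE 0.07, limma adjusted p = 0.000212), and of the 10 genes named here it was the only one whose call held under each centring. Zfp961 had 76.9 and 69.6 in siNC and 67.1 and 58.1 in siVirma (log2 change -0.36, adjusted p = 0.00251). Zfp40, Zfp422 and Zfp160 followed with log2 changes of -0.32, -0.31 and -0.27. Higher coverage was found for Zfp513, with 29.2 and 28.9 in siNC and 49.1 and 35.8 in siVirma (log2 change 0.40, adjusted p = 0.00727), and for Zfp628, with 18.2 and 18.6 and then 27.8 and 25.3 (log2 change 0.40, adjusted p = 0.00183). Zfp771, Zfp646 and Zfp105 were higher by 0.34, 0.23 and 0.23 on the log2 scale. The deposited values of siNC and siVirma did not overlap in 9 of these 10 genes, Zfp160 being the exception. All of these calls except that of Zfp971 were lost with the single shift between groups, those of Zfp961, Zfp40, Zfp422 and Zfp160 also without centring, and those of Zfp40, Zfp422, Zfp160, Zfp513, Zfp771, Zfp646 and Zfp105 without siVirma replicate 1. The calls of Zfp160 and Zfp105 were also lost without siNC replicate 1, those of Zfp422, Zfp646 and Zfp105 without siNC replicate 2, and those of Zfp160 and Zfp646 without siVirma replicate 2.

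**Figure D3:**
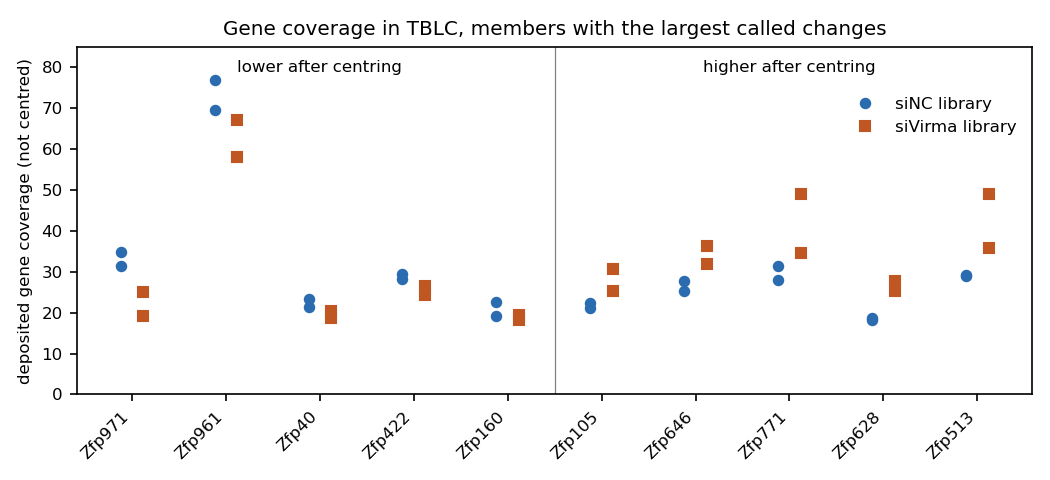
The vertical axis is the deposited coverage of a gene before centring, and each point is 1 TBLC library (blue circles siNC, orange squares siVirma) for the 5 Zfp genes with the largest called falls and the 5 with the largest called rises. Zfp971 goes from 34.9 and 31.4 to 25.0 and 19.1, while the changes of Zfp40 and Zfp160 are small beside it.

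Sites of the Zfp genes were clustered to about the same degree as those of other genes. Another shared site of the same gene lay within 100 nt of 809 of the 1285 sites (63.0%, against 64.3% in other genes). The median distance to the nearest site was 62 nt, against 55 nt. In siVirma, over sites called in both libraries, 53.3% of Zfp sites and 55.3% of other sites had such a neighbour. The 4 densest windows, ranked by number of sites and then by length, held 5 sites each, in Zfp990, Zfp961, Zfp568 and Zfp740. Ranked by sites per nt the order would differ, since Zfp710 had 4 sites within 41 nt. In Zfp990 the 5 sites lay within 68 nt of chromosome 4, had siNC levels from 0.113 to 0.196, and 4 of them were in neither siVirma list. The 5 sites of Zfp961 lay within 84 nt of chromosome 8, had levels from 0.195 to 0.855, and 3 of them were in both siVirma lists and 0 in neither. Levels in the windows of Zfp568 and Zfp740 ran from 0.146 to 0.324 and from 0.136 to 0.305. Of these 4 windows, 3 thus held weakly methylated sites alone and that of Zfp961 both weak and strong ones. Slightly longer windows of 5 sites also held both, with levels from 0.121 to 0.911 within 88 nt of Zfp553. In Zfp266 they ran from 0.237 to 0.923 within 96 nt.

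Pairs of sites at the spacing of zinc finger repeats made up a larger share of pairs in the Zfp genes than in other genes. A C2H2 finger with its linker takes 28 residues, or 84 nt of coding sequence, and adjacent fingers repeat at that distance. All pairs of shared siNC sites of a gene up to 504 nt apart were therefore sorted by their distance. In the Zfp genes 82 of 2760 pairs (2.97%) lay an exact multiple of 84 nt apart, against 1126 of 91475 pairs (1.23%) in other genes, where an even spread over the 84 possible remainders gives 1.19%. Of those 84 remainders, 0 held the most Zfp pairs, followed by one with 52, and the median was 32. In other genes the remainder 0 ranked 25. By distance there were 19 pairs at 84 nt, 17 at 168 nt, 12 at 252 nt, 12 at 336 nt, 14 at 420 nt and 8 at 504 nt, while distances 1 to 10 nt to either side held means of 6.45, 5.15, 5.05, 4.40, 3.90 and 4.20 pairs per distance. The fullest distance that is no multiple of 84 nt held 16 pairs, more than each of the multiples from 252 nt on. Pairs overlap and share genes, so they are not independent, and the comparison is given without a test.

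**Figure D4:**
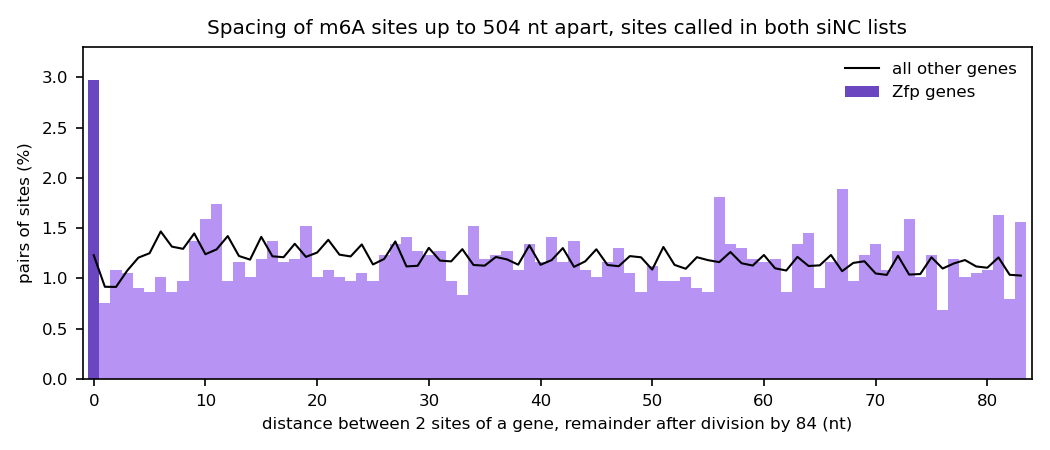
The horizontal axis is the remainder, in nt, when the distance between 2 sites of a gene is divided by 84, and the vertical axis the percentage of pairs of sites with that remainder. Bars are Zfp genes, with remainder 0 in dark purple at 2.97%, and the black line is all other genes, at 1.23% there.

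This spacing was found in every list taken by itself, though the lists share many sites and so count many of the same pairs again. The share of pairs at multiples of 84 nt was 3.23% in siNC replicate 1, 3.26% in siNC replicate 2, 3.47% in siVirma replicate 1 and 3.45% in siVirma replicate 2, against 1.21% to 1.24% in other genes. It came from 43 of the 127 Zfp genes with any pair. In the related families it was 1.48% of 338 pairs in Zbtb genes, 0.826% of 242 pairs in Zscan and Zkscan genes and 1.54% of 389 pairs in Zfp genes with a letter, or 5, 2 and 6 pairs. The 137 sites in such pairs had a median siNC level of 0.522, against 0.491 at the other Zfp sites, and 54.7% against 51.0% were retained in both siVirma libraries. Levels within such pairs differed by a median of 0.173, against 0.259 in other pairs of Zfp sites. The protein and transcript sequences of mm39 were not used here, so whether the sites lie in finger repeats was not tested. Finger repeats and related Zfp genes resemble each other in sequence, and how the authors placed reads that match several copies is not stated in the labels or headers, so reads of near-identical copies may have been split or merged. The part of this in the spacing was not tested.

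The genes with the most such pairs were Zfp850 with 6 and Zfp180, Zfp445 and Zfp961 with 5 each, together 25.6% of the 82 pairs. Without Zfp850 the share was 2.81%. In Zfp180, 4 sites on chromosome 7 at 23804765, 23805017, 23805185 and 23805353 followed each other at 3, 2 and 2 repeats. The first had levels of 1.0 and 0.955 in siNC and 0.786 and 0.636 in siVirma. The third had 0.577 and 0.650 and then 0.400 and 0.308, and the fourth 0.783 and 0.867 and then 0.257 and 0.389. All 4 sites were called in all 4 libraries, with 15 to 47 reads behind each value, and the siVirma values lay below the siNC values at each of these 3. In Zfp850 a chain of 4 sites between 27688230 and 27688902, also on chromosome 7, had mean siNC levels from 0.358 to 0.476. Values of single siNC libraries ran from 0.300 to 0.600 on 15 to 36 reads. Of these 4 sites, 1 was called in both siVirma libraries. In Zfp961 a chain of 3 sites on chromosome 8 from 72722244 to 72723000 was retained whole. Its first site had 0.493 and 0.632 in siNC and 0.273 and 0.250 in siVirma, with 77 to 144 reads.

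Zfp genes were unevenly spread over the genome, with 51 on chromosome 7, 24 on chromosome 17, 20 on chromosome 4 and 15 on chromosome 13. Within 200 kb of another of the 204 genes, measured between their sites, lay 99 genes, a distance chosen after the data were seen. Pairs of sites at multiples of 84 nt made up 3.88% of 1442 pairs in these genes and 1.97% of 1318 pairs in the other 105. The median remaining share was 56.4% in 53 tested genes with such a neighbour and 48.6% in 66 without. Of these 51 and 65 fell, against a background of 93.8% of all tested genes. Retention of sites was 52.9% and 50.0%. By number of shared sites, retention was 41.1% in genes with 1 or 2 sites, 48.6% with 3 to 5, 54.5% with 6 to 10 and 52.2% with 11 to 36, while median siNC coverage in these classes was 21.0, 24.1, 29.0 and 34.0.

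In EPSC no Zfp site passed the test between the guides. The pooled table holds 213 rows at sites of 56 Zfp genes, matched on chromosome, position and strand, with a median of 18.0 reads in sgCtrl. Of these, 80 sites in 21 genes had at least 20 reads in both groups. By Fisher's exact test, two-sided, on pooled reads, which compares these pools and not the conditions, 0 sites were lower at an adjusted p under 0.05 (background 0.255% of 10185 sites) and 0 were higher (background 0.0196%). The lowest adjusted p was 0.321. At an unadjusted p under 0.05 there were 3 lower and 1 higher, 5.0% against 11.8% of other tested sites. Such shares depend on the reads per site, which were not compared between Zfp and other tested sites. The Zfp sites at an unadjusted p under 0.05 are named here after their values were seen. A site of Zfp622 went from 0.806 of 31 reads to 0.545 of 44 (unadjusted exact p = 0.0266), 1 of Zfp219 from 0.771 of 35 to 0.500 of 28 (p = 0.0343) and 1 of Zfp57 from 0.344 of 32 to 0.145 of 62 (p = 0.0344), while 1 of Zfp568 went from 0.129 of 31 to 0.375 of 32 (p = 0.0413). The level was lower in sgGata6 at 46 sites and higher at 34, and the median difference was -0.0129, against -0.00906 at all tested sites.

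Zfp57 held 6 of the 8 Zfp sites with the most sgCtrl reads and 12 of the 80 tested sites, 10 of them lower in sgGata6. The site at chr17:37320408 had a level of 0.661 (95% Wilson interval 0.569 to 0.742, 112 reads) in sgCtrl and 0.572 (0.491 to 0.650, 145 reads) in sgGata6. That at chr17:37320589 had 0.445 (0.362 to 0.532, 128 reads) and 0.376 (0.291 to 0.470, 109 reads). The intervals overlapped at both, and they cover counting error only. Sites of 1 gene share transcripts, so these 12 sites are not replicates of the condition. Of the other deeply read sites, that of Zfp740 at chr15:102121857 had 0.381 and 0.471 and that of Zfp106 at chr2:120362533 had 0.894 and 0.796, again with overlapping intervals.

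The control groups of TBLC and EPSC, from tables made separately, are given side by side without a test. At 84 Zfp sites shared by the siNC lists and with at least 20 sgCtrl reads, the median level was 0.397 in siNC and 0.360 in sgCtrl, and sgCtrl was lower at 53 sites (63.1%, against 68.2% at other sites). At the site of Zfp57 at chr17:37320609 the siNC levels were 0.878 and 0.865, the siVirma levels 0.521 and 0.539 and the sgCtrl level 0.664. At chr2:120362533 in Zfp106 the siNC levels of 0.882 and 0.847 stood beside 0.894 in sgCtrl.

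**Figure D5:**
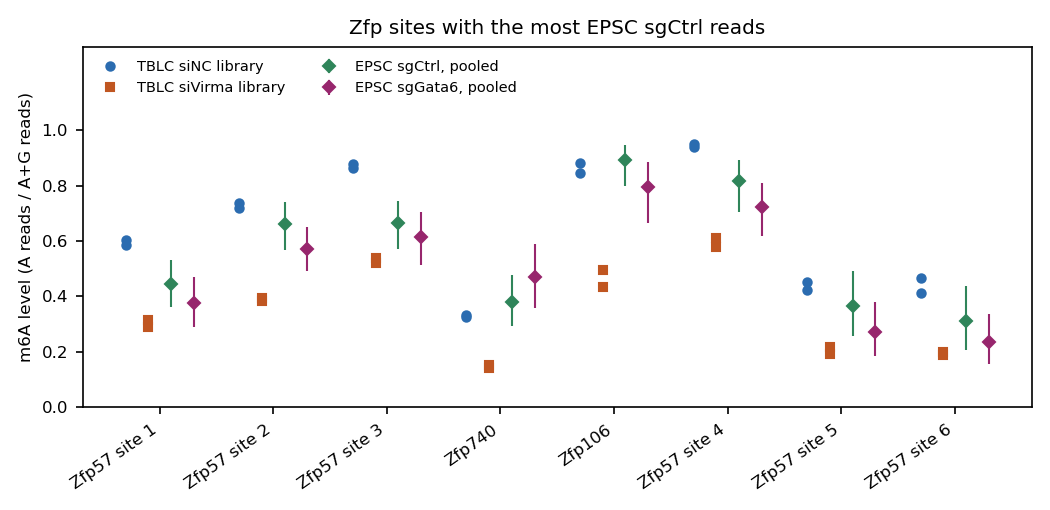
The vertical axis is the m6A level at the 8 Zfp sites with the most sgCtrl reads, numbered within Zfp57 by that read number. Circles and squares are single TBLC libraries and diamonds pooled EPSC values with 95% Wilson intervals, and at each of the 8 sites the intervals of sgCtrl and sgGata6 overlap.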

How the data were processed

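GLORI libraries of TBLC (2 siNC, 2 siVirma) and EPSC (2 sgCtrl, 2 sgGata6) were compared by the groups in their titles. The build is mm39, per the submitters' processing notes. The aligner and site caller are not stated there. The deposited TBLC lists give A and A+G read counts per called site, per the file headers, and a level as a fraction of A in A+G reads. The authors' p-value and adjusted p-value per site were used only to describe the filter, the largest adjusted p being 0.00400. Gene coverage is a deposited signal whose computation the labels do not give. The deposited EPSC table holds A counts and A+G coverage pooled per group, and its 2 further coverage columns were not used. Sites with no named gene, 6.14% to 7.70% per list, were left out of gene tests.

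The 204 genes, the gene lists and the tests were chosen with earlier results of these data known. Level changes were fitted in R 4.3.3 by edgeR 4.0.16 on A and G reads (quasi-likelihood, a term per library, at least 20 A+G reads in each library), coverage with limma 3.58.1 on log2 values centred per library (an uncentred shift of 0.13 was removed), and EPSC sites with Fisher's exact test, all adjusted over the whole table at 0.05. DESeq2 1.42.0 was an alternative. Retention, clustering and spacing are descriptions. Scripts were tested on simulated data. Summaries used Python 3.11.15, pandas 2.3.3 and scipy 1.17.1.

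The text names the 8 genes with the most sites, the 8 lowest and 8 highest remaining shares (100 reads per library), the 6 genes with most lost sites, 4 of the 13 genes that lost all sites, the 5 largest coverage calls each way, the 4 largest and 4 smallest site changes (50 reads), the 4 genes with most pairs at 84 nt, the 4 densest windows, the 8 EPSC sites with most sgCtrl reads, and up to 4 genes per list. Replicates differed in A+G reads beyond counting noise in siNC and siVirma (chi-square per degree of freedom 1.20 and 1.08). A planned split by KRAB domain was not made, since protein sequences were not used here, and no sequence is printed.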

Additional observations from a re-analysis of the deposited data

How the results depend on the processing

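With at least 50 reads per site, 45 of 45 genes and 144 of 145 sites fell, since fewer were tested, and the median remaining share was 49.2% per gene and 47.7% per site (other genes 41.8%, other sites 42.0%). With 10 reads or no minimum it was 54.6% per gene. Leaving out 1 library gave 53.1% to 53.6% per gene and 50.3% to 52.3% per site. DESeq2 called 115 and limma on logit levels 116 genes lower. The main test called 93.8% of all genes and 91.6% of all sites lower. Shares over all genes or sites under these other settings are not given here. The change in the gap between Zfp and other sites ran from -0.00952 to 0.00897 without 1 library, and it was negative without siNC replicate 2 (-0.00821), siVirma replicate 1 (-0.00861) or siVirma replicate 2 (-0.00952); the cause was not tested. Retention was 73.9% when 1 siVirma list sufficed (other sites 66.7%) and 39.5% to 65.3% without 1 library, by construction of the lists.

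Coverage calls were 1 lower and 5 higher without centring, 1 and 0 with a single shift between groups (chosen after seeing the data), and 3 to 12 lower and 1 to 9 higher without 1 library. Sites with a neighbour made up 28.8% within 30 nt, 82.6% within 300 nt, and 67.7% and 66.8% in the single siNC lists, against 31.2%, 82.8%, 67.2% and 66.7% in other genes. Within 1 nt of a multiple of 84 nt lay 5.29% of Zfp pairs and 3.18% of other pairs.

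Deviations of same-numbered libraries from their group means correlated by -0.0131 for levels and 0.138 for coverage; the labels tie the numbers to no shared source, and 2 pairs of libraries do not establish a pairing. With a replicate block 116 genes and 486 sites fell, and coverage was lower in 20 and higher in 12 Zfp genes. Without the block 93.8% of all genes and 91.6% of all sites fell, and coverage was lower in 9.65% and higher in 13.3%. Shares over all genes with the block are not given here, so these counts describe no trait of the Zfp genes. Of the other alternatives of single genes, sites and counts, 394 kept direction and side of the threshold or stayed within the spread, 35 lost a call and 6 gained one. Of the 204 genes, 85 had no testable site, and 56 of them had none without any minimum of reads, since no site of theirs was called in all 4 lists; lower depth and a level under 0.1 cannot be told apart there.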
